A study of Mus musculus with 6 samples.

Results

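Alb, Afp, Afm and Gc are 4 genes of the albumin family, on mouse chromosome 5 in a count table of 54532 genes. They were chosen by symbol, with their counts in these libraries known. By those counts Afp was the only gene of the 4 with RNA, and its levels in the 2 groups did not overlap. All 4 were listed in the table, but only Afp had counts, and Alb, Afm and Gc were at 0 counts in all 6 libraries. The libraries came from DC2.4, an immature mouse dendritic cell line described as derived from bone marrow. The labels give 3 of them as cells with a Vdbp expression vector and the other 3 as cells with the empty vector, both on the pTT5 backbone, after transfection, passage and selection. Vdbp is the vitamin D-binding protein, whose mouse gene is Gc. Gc was at 0 with the Vdbp label too, which goes against that label if the insert holds the mouse sequence. The labels name neither the sequence nor the species of the insert, and they leave unsaid whether replicates are separate transfections. The members' levels are given as a description with no test.

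The family arose by gene duplication and encodes plasma proteins made of repeated helical domains held by disulfide bonds. Hepatocytes secrete all of them, and in the embryo the yolk sac and fetal liver make alpha-fetoprotein, the product of Afp, in place of much of the albumin. Albumin, the product of Alb, carries fatty acids, hormones and drugs and holds the osmotic pressure of blood. Afamin, from Afm, binds vitamin E and carries hydrophobic Wnt proteins. The vitamin D-binding protein also captures monomeric actin released by damaged cells and increases the chemotactic activity of the complement fragment C5a. In liver, transcription of Afp falls steeply after birth, with the repressors Zhx2 and Zbtb20 taking part in mice.

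Alb, Afp and Afm lie in a row on the plus strand, and Gc lies apart from them on the minus strand. In the deposited table Alb (ENSMUSG00000029368) spans positions 90460897 to 90476602, Afp (ENSMUSG00000054932) 90490737 to 90508907, Afm (ENSMUSG00000029369) 90518932 to 90553543, and Gc (ENSMUSG00000035540) 89417522 to 89457898. Between Alb and Afp there are 14134 bases, and between Afp and Afm 10024 bases, whereas 1002998 bases separate Gc from Alb. The table names no genome build; these 4 positions equal those of GENCODE M21 on GRCm38. In that annotation the main transcripts of Alb, Afp and Afm have 15 exons each and that of Gc has 13.

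The promoters of the 4 members are shown because 1 of them belongs to a gene with RNA in these cells and 3 to genes without a counted read. Each window runs from 250 bases before to 50 bases after the RefSeq start on GRCm38.p6, is written in the direction of transcription, and has in capitals the TATA box TATAAA, which places the start of transcription, and TTATGTAA, a binding sequence of the PAR bZIP factors Dbp, Tef and Hlf, each on either strand. Afp occupies chr5:90490464-90490763 on the plus strand, Alb chr5:90460620-90460919 on the plus strand, Afm chr5:90518699-90518998 on the plus strand, and Gc chr5:89457849-89458148 on the minus strand.
Afp: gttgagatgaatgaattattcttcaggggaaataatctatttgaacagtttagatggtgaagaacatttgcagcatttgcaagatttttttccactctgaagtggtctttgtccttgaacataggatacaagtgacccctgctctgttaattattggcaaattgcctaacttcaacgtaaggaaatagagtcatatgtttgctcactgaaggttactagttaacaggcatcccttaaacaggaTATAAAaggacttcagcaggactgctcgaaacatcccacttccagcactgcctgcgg
Alb: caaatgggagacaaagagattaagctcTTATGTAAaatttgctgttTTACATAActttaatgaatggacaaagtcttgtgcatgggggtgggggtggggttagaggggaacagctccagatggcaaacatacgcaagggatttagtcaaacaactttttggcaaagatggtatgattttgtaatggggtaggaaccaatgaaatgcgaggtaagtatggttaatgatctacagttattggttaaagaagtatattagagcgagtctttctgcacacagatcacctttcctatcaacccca
Afm: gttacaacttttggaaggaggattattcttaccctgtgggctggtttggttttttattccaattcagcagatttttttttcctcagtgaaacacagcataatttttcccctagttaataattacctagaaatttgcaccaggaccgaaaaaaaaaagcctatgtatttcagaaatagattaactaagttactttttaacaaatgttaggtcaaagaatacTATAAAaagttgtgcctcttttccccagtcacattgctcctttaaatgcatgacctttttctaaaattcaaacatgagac
Gc: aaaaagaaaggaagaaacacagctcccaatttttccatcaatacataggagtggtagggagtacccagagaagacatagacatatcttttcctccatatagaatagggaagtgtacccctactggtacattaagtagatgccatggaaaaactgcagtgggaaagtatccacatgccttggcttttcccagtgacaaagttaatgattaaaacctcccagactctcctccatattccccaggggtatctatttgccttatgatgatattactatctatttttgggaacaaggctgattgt

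TATAAA was found in Afp, 7 bases before the RefSeq start, and in Afm, 30 bases before it, and in 13.6% of 32851 promoter windows of the same length. These distances depend on the start used. RefSeq starts Afp at 90490714 and Afm at 90518949, against 90490737 and 90518932 in the deposited table. TTATGTAA was found in Alb alone of the 4 members and in 0.938% of all windows. In Alb its first base lay 223 bases before the start on the strand of the gene and 204 bases before it on the other strand. The window of Gc held neither of these motifs. The motifs were chosen with the counts known, and the matches describe letters only. Only exact matches are in capitals, so binding sites with other letters are left unmarked in all 4 windows.

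Afp was well expressed in every library. It had 1450, 1582 and 1352 counts in replicates 1, 2 and 3 labelled Vdbp, against 1391, 1288 and 1426 counts in empty-vector replicates 1, 2 and 3. In CPM, counts scaled to a common library total after TMM (trimmed mean of M values) adjustment, these were 90.3, 94.5 and 86.4 with the Vdbp label, against 85.5, 77.8 and 84.3 with empty vector. All 3 libraries labelled Vdbp lay above all 3 empty-vector libraries, but Vdbp replicate 3 and empty-vector replicate 1 differed by less than the SD within either group. The mean was 90.4 ± 4.08 CPM with the Vdbp label and 82.5 ± 4.17 CPM with empty vector (SD, n = 3 each). The log2 fold change from the edgeR fit, positive where the Vdbp label is higher, was 0.13 (SE 0.09). Groups without overlap and higher with the Vdbp label were found for 5.26% of the 12844 genes with enough counts to be tested. In such bulk libraries, fewer cells with Afp RNA and less of it per cell cannot be told apart.

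With a joint offset for gene length and GC content the log2 fold change of Afp was 0.21 (SE 0.09). When single libraries were left out, its lowest value was 0.09, in the absence of empty-vector replicate 2, and its highest 0.16, in the absence of Vdbp replicate 3. The coefficient of variation of Afp over the 6 libraries was 6.55%, against 2.66% from counting error alone. Among 2339 other tested genes within 1.5 times its level the median coefficient was 9.31%, and it was larger than that of Afp in 75.4% of them. Afp thus varied less across these libraries than most genes of its level.

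**Figure D1:**
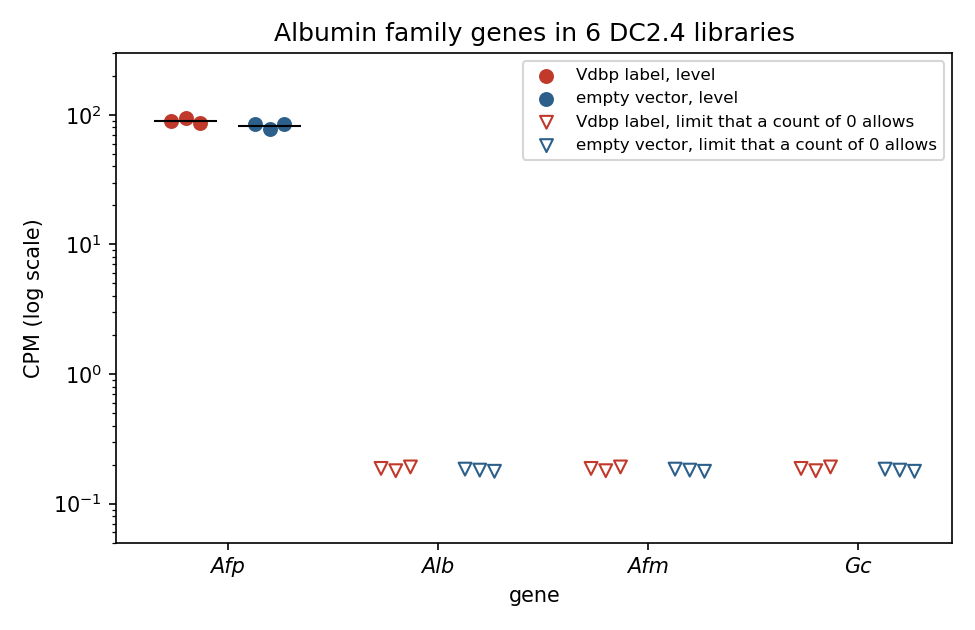
Level of the 4 albumin family genes in each library, in CPM on a log scale, with the libraries labelled Vdbp to the left of the empty-vector libraries. Filled circles are levels and black lines group means; open triangles mark the limit that a count of 0 allows (3 counts). Afp lay between 77.8 and 94.5 CPM, while Alb, Afm and Gc were at 0 counts with limits of 0.177 to 0.192 CPM.

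Per unit of length, Afp stood in the upper part of the expressed genes. Its deposited FPKM (fragments per kilobase of gene model, scaled to the library) was 26.6, 28.0 and 25.5 in replicates 1, 2 and 3 labelled Vdbp, against 25.4, 22.8 and 24.9 in empty-vector replicates 1, 2 and 3. The mean over all 6 libraries, 25.5 FPKM, was above the level of 90.3% of 22046 protein-coding genes and of 80.7% of the 11103 that were tested. The median tested protein-coding gene had 7.63 FPKM. The deposited length of Afp, 3368 bases, equals the union of the exons of its 5 annotated transcripts, 3 of which are retained-intron forms, whereas the main coding transcript has 2063 bases. FPKM on the shorter length would be higher in proportion.

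**Figure D2:**
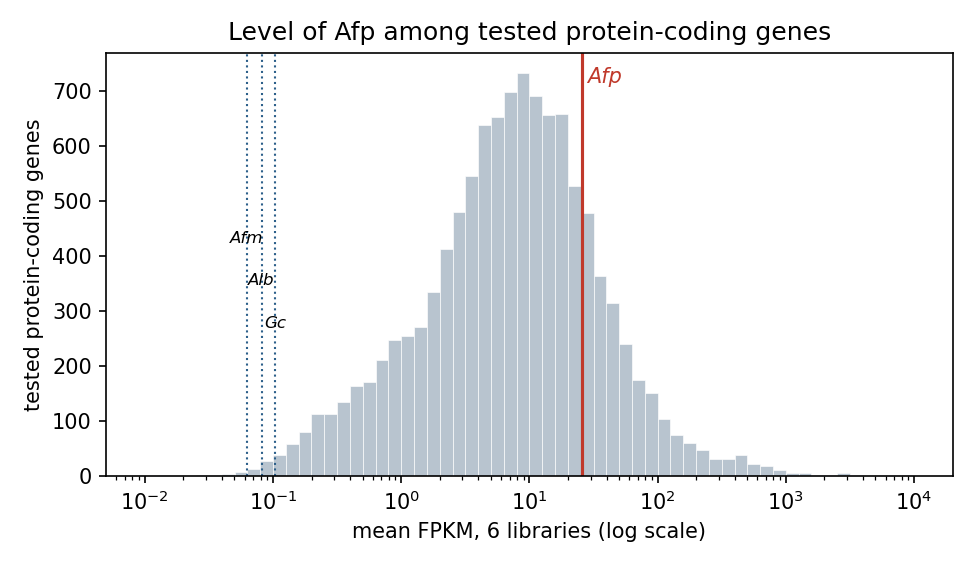
Number of tested protein-coding genes by mean FPKM over 6 libraries (log scale). The solid line marks Afp at 25.5 FPKM, to the right of the median of 7.63 FPKM, and the dotted lines mark the highest limits that a count of 0 allows for Afm (0.0628), Alb (0.0815) and Gc (0.103 FPKM).

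Alb, the neighbour of Afp and the most abundant of the family in adult liver, had 0 counts in each of the 3 libraries labelled Vdbp and 0 counts in each of the 3 empty-vector libraries. Taking 3 counts as what a count of 0 allows in a library, its limit was 0.0755 to 0.0815 FPKM. In FPKM, Afp was at least 298.5-fold higher than Alb in each of the 6 libraries. Afm likewise had 0 counts in all 3 libraries labelled Vdbp and in all 3 with empty vector, and its limit of 0.0582 to 0.0628 FPKM put Afp at least 387-fold higher. These limits cover counting error only.

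Gc, the mouse gene of the protein that the labels name as Vdbp, had 0 counts in each library labelled Vdbp and in each empty-vector library. Its limit was 0.0958 to 0.103 FPKM, and Afp was at least 235-fold higher. RNA with the mouse Gc sequence was thus not detectable at this depth in the libraries labelled Vdbp, and each direction below is that of the libraries so labelled. The RT-qPCR of Vdbp that the labels mention was not analysed here. Of all 22046 protein-coding genes, 32.3% had 0 counts in every library, so a gene at 0 was common in this table.

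The main Afp transcript could be told from its relatives by sequence; the retained-intron forms were not checked. None of the 2039 windows of 25 bases in the main Afp transcript occurred, on either strand, in a GENCODE M21 transcript of another gene. The same was true of the 2010 windows of Alb and the 1777 of Gc. In Afm 4.32% of the windows were shared with Gm42109, an overlapping gene on the other strand that was also at 0 counts. The longest exact match between the coding sequences of Afp and Alb is shown for scale; it had 13 bases and began at base 1745 of the Afp and base 1004 of the Alb coding sequence.
Afp and Alb: aggaccaggaagt
Afp shared a match of 13 bases with Afm as well, and of 11 bases with Gc. Gm43449, an antisense gene that overlaps the span of Afp, shares 0 exon bases with it and had 0 counts in all libraries; no source used here states whether the counting used strand.

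The genes around the family spanned a wide range of levels. Of 33 other genes within 500 kb of a member, 16 had 0 counts in all libraries and 9 were tested; of the 17 that are protein-coding, Slc4a4, Npffr2, Adamts3 and Cxcl5 were at 0. The nearest protein-coding gene beyond Afm, 5830473C10Rik, had 3, 1 and 0 counts with the Vdbp label and 4, 2 and 0 with empty vector, and the next, Rassf6, had 8, 5 and 2 counts with the Vdbp label and 5, 7 and 3 with empty vector. RefSeq gives 5830473C10Rik the symbol Albfm1, for albumin superfamily member, and it was not among the 4 chosen members. Before Alb lie Gm9958 at 0.863 FPKM, Ankrd17, an ankyrin repeat protein, at 6.13 FPKM and Cox18, a factor that inserts a subunit of cytochrome oxidase, at 10.4 FPKM, each as the mean over 6 libraries. Farther from Afm follows a cluster of chemokine genes. Pf4, platelet factor 4, reached 905 FPKM and Cxcl2 261 FPKM, against 4.63 FPKM for Cxcl3 and 0.644 FPKM for Ppbp. Mthfd2l, a mitochondrial folate enzyme, was at 1.60 FPKM and Cxcl1 at 0.454 FPKM, and Epgn and Cxcl15 had 4 counts each over all libraries. Among the listed genes between Slc4a4 and Rassf6, Afp had the highest FPKM, and Alb and Afm on its 2 sides were at 0.

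**Figure D3:**
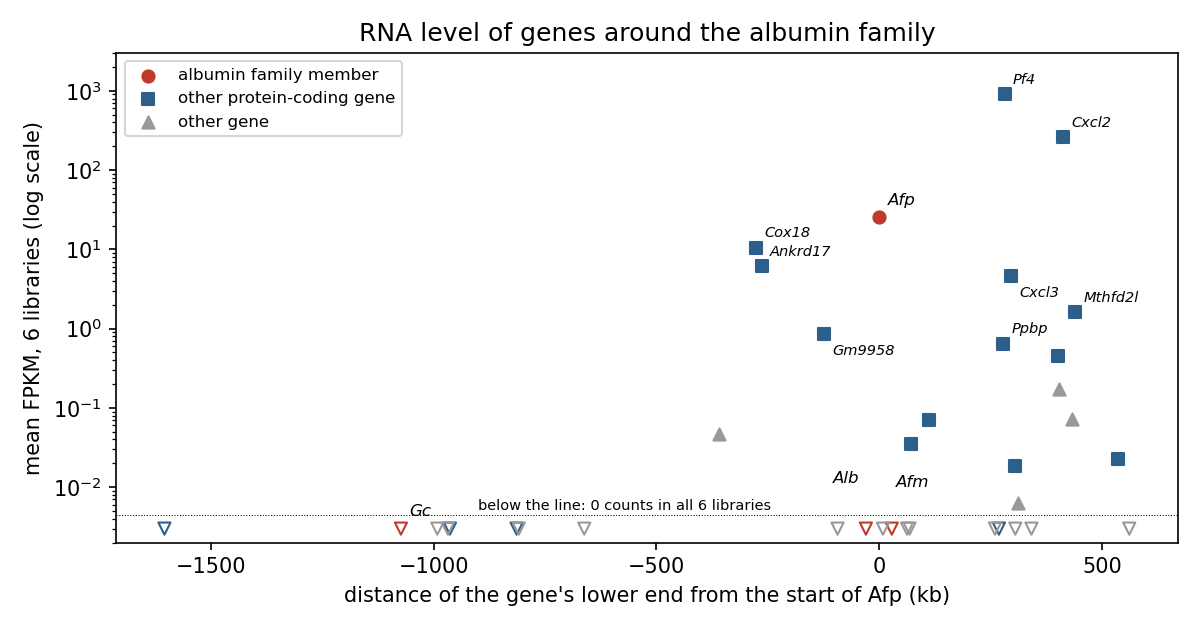
Mean FPKM over 6 libraries (log scale) of the 4 members and of 33 other genes within 500 kb of a member, by the distance in kb from the start of Afp. Open triangles below the dotted line are genes at 0 counts in all libraries: Alb and Afm, on either side of Afp at 25.5 FPKM, and Gc are among them.

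No neighbour passed the comparison of the groups. edgeR's quasi-likelihood test called 0% of 12844 tested genes at an adjusted p under 0.05 (Benjamini-Hochberg over all tested genes), while 687 genes (5.35%) had an unadjusted p under 0.05. DESeq2 called 4 of 24134 genes (0.0166%) and limma-voom 0, with 626 (2.59%) and 701 (5.46%) at an unadjusted p under 0.05. Of the 12844 genes that edgeR tested, 589 had an unadjusted p under 0.05 in DESeq2. Of the 9 tested neighbours, edgeR and limma-voom called 0, and 2 had an unadjusted p under 0.05 in each. DESeq2 called 0 of the 17 neighbours with counts, and 2 had an unadjusted p under 0.05. Cxcl2, a neutrophil chemokine, had 441, 492 and 455 CPM with the Vdbp label, against 628, 658 and 585 CPM with empty vector (log2 fold change −0.43, SE 0.09, edgeR adjusted p = 0.781). It was called only in the fit with no filter on low counts (edgeR adjusted p = 0.0235). Its unadjusted p in edgeR was 0.000623, its DESeq2 adjusted p was 0.0661, and with the offset its edgeR adjusted p was 0.146. The adjusted p of 0.781 was the same for genes with a larger unadjusted p, such as Pf4 (0.213 in edgeR). Cxcl3, a related chemokine, averaged 14.3 ± 0.02 CPM with the Vdbp label and 18.3 ± 0.97 CPM with empty vector (SD, n = 3 each; log2 fold change −0.35, SE 0.12). With the offset the values were −0.36 for Cxcl2 and −0.24 for Cxcl3. Together with Pf4, 3 of 9 tested neighbours had groups without overlap, all lower with the Vdbp label, where 5.61% of tested genes did. The neighbours' median log2 fold change was −0.14, against −0.01 over all tested genes. Without Vdbp replicate 1 it was −0.07, and without Vdbp replicate 3 −0.22.

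The cells had myeloid RNA and counts at or near 0 for hepatocyte markers. All 14 dendritic and myeloid markers had counts, and their summed level was 2112 to 2260 CPM with the Vdbp label and 2128 to 2227 CPM with empty vector. Adgre1, at a mean of 627 CPM, Csf1r and Spi1 were the highest. Of the genes that mark dendritic cells or antigen presentation, Cd74 had 203 CPM with the Vdbp label and 168 CPM with empty vector, Cd86 had 78.0 and Itgax 51.0 CPM with the Vdbp label against 83.3 and 49.6 CPM with empty vector, and Irf8, Cd80 and Zbtb46 were also counted in every library. Flt3, Batf3 and H2-Ab1 had at most 6 counts in any library. Of 8 hepatocyte markers, of which Hnf4a is also listed among the regulators, Cyp2e1, Cps1, Tat and Cyp3a11 were at 0 and the others had at most 2 counts in a library, a summed level of 0.0622 to 0.120 CPM with the Vdbp label and 0 to 0.121 CPM with empty vector. Of 8 fibroblast and epithelial markers Col1a2, Krt8 and Krt18 were at 0, and the sum was 1.24 to 2.36 CPM with the Vdbp label and 1.60 to 2.31 CPM with empty vector.

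Several liver transcription factors that act on the family promoters were at or near 0. Of 16 transcription factors listed as activators or repressors of these promoters, Foxa2, Onecut1, Nr5a2 and Zhx2 had 0 counts in all libraries. Zhx2, the repressor of Afp named above, thus had a limit of 0.177 to 0.192 CPM. Hnf4a had 2 counts in all with the Vdbp label and 0 with empty vector, and Foxa3 had 3 with the Vdbp label and 5 with empty vector. Hlf had 0 counts with the Vdbp label and 1 with empty vector.

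The 6 factors of this list that were tested are also used outside the liver. Cebpb, an activator of acute-phase and myeloid genes that also binds the albumin promoter, averaged 559 ± 66.2 CPM with the Vdbp label and 455 ± 122 CPM with empty vector, with a log2 fold change of 0.30 that became 0.07 with the offset. Nfil3, a repressor that competes with PAR bZIP factors, averaged 65.9 ± 6.12 and Tef 33.4 ± 2.55 CPM with the Vdbp label, against 64.2 ± 7.77 and 34.7 ± 2.08 CPM with empty vector. Cebpa averaged 20.8 ± 1.81 CPM with the Vdbp label and 18.5 ± 3.35 CPM with empty vector. Dbp, which owes its name to the D site of the albumin promoter, averaged 5.89 ± 0.60 CPM with the Vdbp label and 5.34 ± 0.62 CPM with empty vector (SD, n = 3 each throughout). Zbtb20, the other Afp repressor, had 15.5, 14.4 and 17.1 CPM with the Vdbp label, against 19.4, 21.6 and 18.1 CPM with empty vector. Its groups did not overlap, but the difference did not pass (log2 fold change −0.33, SE 0.13, edgeR adjusted p = 0.781), and the offset for length and GC content moved it to −0.19. Of the 6, edgeR and limma-voom called 0, and 1 had an unadjusted p under 0.05 in each. DESeq2 called 0 of the 12 listed factors with counts, and 1 had an unadjusted p under 0.05. Among all 12844 tested genes, 687 (5.35%) had such a p in edgeR and 701 (5.46%) in limma-voom. In DESeq2 it was 626 (2.59%) of 24134 genes. Groups without overlap on the lower side, as for Zbtb20, were found for 5.61% of tested genes. The median log2 fold change of the 6 was 0.09, and −0.04 with the offset. It was 0.04, 0.15 and 0.05 without Vdbp replicates 1, 2 and 3 in turn, and 0.05 without empty-vector replicate 2.

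Of 38 other plasma proteins that hepatocytes secrete, 19 had 0 counts in all 6 libraries, among them Ttr, Rbp4, Serpina6 and Serpina7, which carry thyroid hormone, retinol or corticosteroids in blood, and the 3 fibrinogen chains Fga, Fgb and Fgg. The 8 that were tested included C3, the central complement protein, which macrophages also make. It averaged 807 ± 90.3 CPM with the Vdbp label and 840.3 ± 33.7 CPM with empty vector. Hp, the haemoglobin-binding haptoglobin, averaged 42.1 ± 6.11 CPM with the Vdbp label and 39.6 ± 1.17 CPM with empty vector. Orm1, the acute-phase protein orosomucoid, had 27.3, 28.8 and 26.8 CPM with the Vdbp label, against 39.0, 35.4 and 33.7 CPM with empty vector. The groups did not overlap for Orm1 (log2 fold change −0.38, SE 0.11), yet its edgeR adjusted p was 0.781. Nor did they for Apoa2, an apolipoprotein named after its values were seen, which went the other way with 1.06, 1.20 and 1.34 CPM with the Vdbp label, against 0.799, 0.604 and 0.651 CPM with empty vector (log2 fold change 0.80, SE 0.33, edgeR adjusted p = 0.781). These 2 of 8 stand beside 5.26% of tested genes without overlap on the higher side and 5.61% on the lower side. The iron carrier Trf, the lipid carrier Apoe and the copper protein Cp averaged 10.1 ± 0.78, 8.16 ± 1.15 and 6.94 ± 1.57 CPM with the Vdbp label, against 10.3 ± 2.69, 6.01 ± 1.79 and 8.65 ± 1.35 CPM with empty vector (SD, n = 3 each throughout). For Apoe the log2 fold change of 0.44 became 0.26 with the offset. Per length, Afp at 25.5 FPKM lay beside Hp at 25.3 and below Orm1 at 40.8 and C3 at 159 FPKM. None of the 8 was called by edgeR, DESeq2 or limma-voom, and their median log2 fold change was −0.04. An unadjusted p under 0.05 was found for 2 of them in edgeR and 3 in limma-voom. Among all 12844 tested genes it was found for 687 (5.35%) in edgeR and 701 (5.46%) in limma-voom. In DESeq2 it was found for 1 of the 19 listed genes with counts and for 626 (2.59%) of 24134 genes.

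The uptake receptors Lrp2 and Cubn were low, while an adaptor and a chaperone of such receptors were not. Lrp2, or megalin, the endocytic receptor for the vitamin D-binding protein in the kidney, had 16, 21 and 32 counts with the Vdbp label and 30, 29 and 26 with empty vector. Cubn, or cubilin, its partner and a receptor for albumin, had 12, 21 and 32 counts with the Vdbp label and 17, 21 and 28 with empty vector. Amn, which brings cubilin to the membrane, had at most 4 counts in a library, Cav1, the caveolin of albumin transport across endothelium, at most 2, and Sparc, a secreted albumin-binding protein, none. By contrast Dab2, the adaptor of megalin that also serves other receptors, had 329, 323 and 360 CPM with the Vdbp label, against 423, 448 and 349 CPM with empty vector. The groups overlapped (log2 fold change −0.27, SE 0.11, edgeR adjusted p = 0.781), and the offset moved the value to −0.16. Lrpap1, the chaperone of LDL receptor family members, averaged 376 ± 44.9 CPM with the Vdbp label and 399.5 ± 20.3 CPM with empty vector.

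The neonatal Fc receptor recycles albumin, and its heavy chain Fcgrt averaged 10.6 ± 0.57 CPM with the Vdbp label and 10.5 ± 2.64 CPM with empty vector. Its log2 fold change was 0.02 with a 95% interval of −0.37 to 0.41. Its light chain B2m, shared with class I molecules, averaged 2093 ± 147 CPM with the Vdbp label and 2336 ± 344 CPM with empty vector. Cd44 and Anxa2, surface proteins reported to bind the vitamin D-binding protein on human neutrophils, averaged 290.1 ± 25.9 and 419 ± 29.5 CPM with the Vdbp label, against 304 ± 23.6 and 406 ± 16.0 CPM with empty vector (SD, n = 3 each throughout). Of the 8 tested genes of this list 0 were called by edgeR or limma-voom, and 1 had an unadjusted p under 0.05 in each. So had 687 (5.35%) and 701 (5.46%) of all 12844 tested genes in edgeR and limma-voom. DESeq2 called 0 of the 10 listed genes with counts, and 1 had an unadjusted p under 0.05. So had 626 (2.59%) of 24134 genes in DESeq2. The list's median log2 fold change was −0.08. Without Vdbp replicate 3 it was −0.18.

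The vitamin D-binding protein and gelsolin together clear actin from plasma, and genes of actin and its binding proteins were abundant. Gsn, which encodes gelsolin, averaged 258 ± 40.4 CPM with the Vdbp label and 245 ± 12.5 CPM with empty vector, a log2 fold change of 0.08 that became −0.06 with the offset. Actb had 2868, 2326 and 2406 CPM with the Vdbp label, against 2272, 2137 and 2059 CPM with empty vector, and Actg1 had 1261, 1096 and 1093 CPM with the Vdbp label, against 1002, 949 and 1026 CPM with empty vector. These cytoplasmic actins were the 2 of 7 genes whose groups did not overlap, both higher with the Vdbp label, where 5.26% of all tested genes were. Their log2 fold changes were 0.23 for Actb and 0.21 for Actg1 (edgeR adjusted p = 0.781 for each), and with the offset 0.13 and 0.10. Vdbp replicate 1 was the highest library in both, and it also had the strongest positive trend with GC content. Without it Actb was at 0.14, as was the median of the list. Pfn1, profilin, and Cfl1, cofilin, averaged 1073 ± 189 and 1231 ± 149 CPM with the Vdbp label, against 870.3 ± 118 and 1102 ± 60.7 CPM with empty vector. For Pfn1 the log2 fold change of 0.30 became 0.14 with the offset. Tmsb4x and Tmsb10, thymosins that hold actin monomers, averaged 545 ± 77.7 and 38.3 ± 4.41 CPM with the Vdbp label, against 606 ± 68.5 and 27.9 ± 10.8 CPM with empty vector (SD, n = 3 each throughout). None of the 7 was called by edgeR, DESeq2 or limma-voom. An unadjusted p under 0.05 was found for 2, 4 and 4 of them in edgeR, DESeq2 and limma-voom. Among all 12844 tested genes it was found for 687 (5.35%), 589 and 701 (5.46%). The list's median log2 fold change was 0.21, and 0.10 with the offset.

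C5ar1, the main receptor of C5a, had 289, 245 and 247 CPM with the Vdbp label, against 234, 214 and 208 CPM with empty vector. The groups did not overlap (log2 fold change 0.25, SE 0.10; 0.25 with the offset), and the edgeR adjusted p was 0.781. C5ar2, the second receptor, averaged 16.8 ± 0.84 CPM with the Vdbp label and 16.4 ± 0.37 CPM with empty vector (SD, n = 3 each). Its log2 fold change was 0.04, and the 95% interval ran from −0.22 to 0.30. Hc, which encodes C5, had 2, 0 and 1 counts with the Vdbp label and 0 counts in each empty-vector library. Of the 2 tested genes, edgeR and limma-voom called 0, and C5ar1 had an unadjusted p under 0.05 in each. So had 687 (5.35%) and 701 (5.46%) of all 12844 tested genes in edgeR and limma-voom. DESeq2 called 0 of the 3 listed genes with counts, and 1 had an unadjusted p under 0.05. So had 626 (2.59%) of 24134 genes in DESeq2. Groups without overlap on the higher side were found for 5.26% of tested genes.

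**Figure D4:**
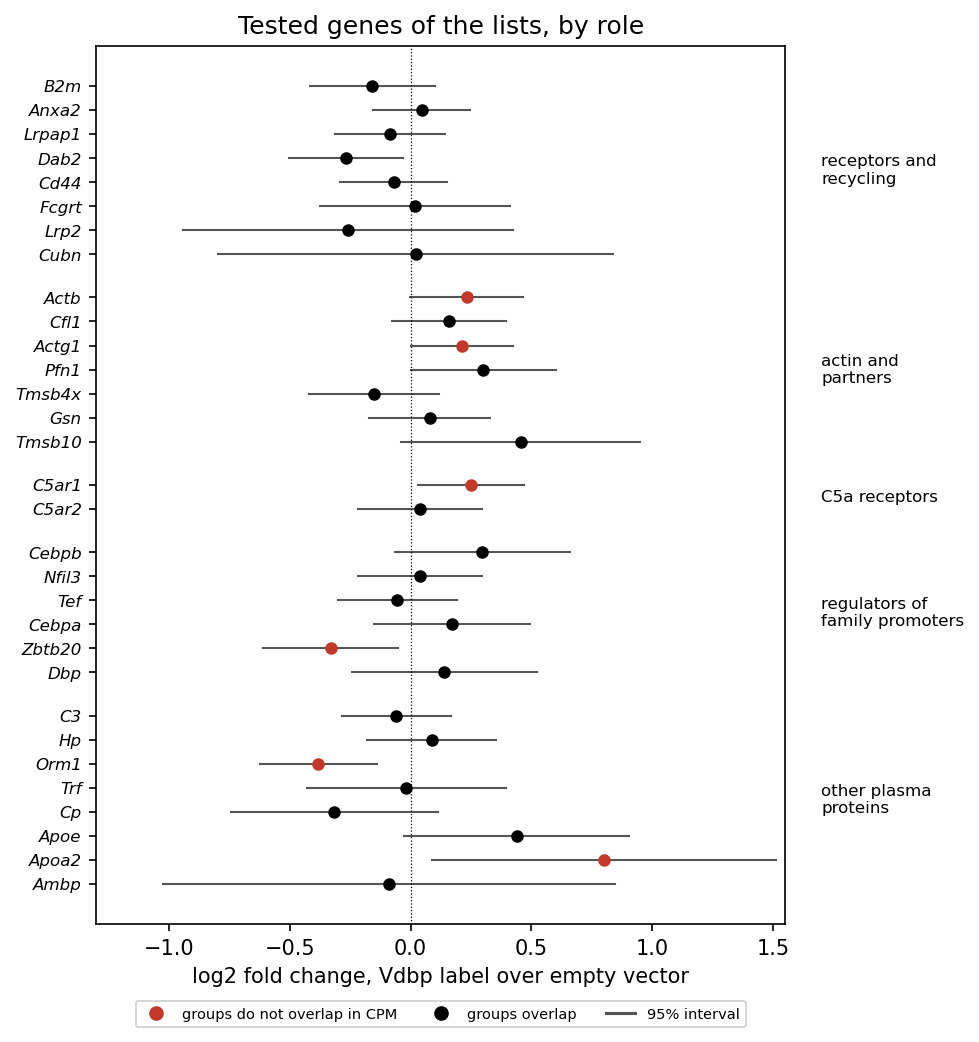
Log2 fold change of the libraries labelled Vdbp over the empty-vector libraries for the tested genes of 5 lists, with 95% intervals from the edgeR fit. Red points are genes whose groups do not overlap in CPM, and black points those whose groups overlap; Actb, Actg1 and C5ar1 are red on the higher side and Zbtb20 and Orm1 on the lower side. Apoa2, also red, averaged 1.20 CPM with the Vdbp label and 0.685 CPM with empty vector.

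The 5 tested genes whose log2 CPM followed that of Afp most closely over the 6 libraries were Rpl36a-ps2 (Pearson r = 0.994), Rps20 (0.988), Copz2 (0.977), Gm2606 (0.976) and Coq5 (0.975). Rps20 encodes a protein of the small ribosomal subunit, Copz2 a coat protein of Golgi vesicles and Coq5 an enzyme of ubiquinone synthesis, while Rpl36a-ps2 and Gm2606 are processed pseudogenes, whose counts are uncertain where they share reads with a parent gene. With 6 libraries, 0.841% of the other tested genes reached an r above 0.9 and 0.942% an r below −0.9. Rps20 had 606, 643 and 583 CPM with the Vdbp label, against 563, 513 and 574 CPM with empty vector. Like Afp it was highest in Vdbp replicate 2 and lowest in empty-vector replicate 2. These r describe 6 libraries that also share differences in depth and GC trend.

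Library totals were 15563800 to 16529104 counts with the Vdbp label and 16376659 to 16710975 with empty vector, and 24135 genes had counts in at least 1 library. The libraries differed in a trend with GC content. Each gene's deviation in a library was set against its GC content, and Spearman's rho over genes was 0.75, −0.02 and −0.41 in Vdbp replicates 1, 2 and 3, and −0.08, −0.64 and 0.07 in empty-vector replicates 1, 2 and 3. Over genes, rho between log2 fold change and GC content was 0.54, against 0.00282 once the offset was applied. What part this trend had in the differences above was not tested.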

How the data were processed

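RNA of 6 DC2.4 samples was sequenced as mRNA libraries, per the labels. The submitters' processing notes name HISAT2 and StringTie, with no version; build, annotation and counting tool were not stated. The authors deposited raw counts per Ensembl gene and an FPKM table; each deposited FPKM equalled the count over the listed length and a constant per library (largest relative gap 5.33e-15). GENCODE M21 held 99.8% of the identifiers, with equal start and end for 98.3% of those.

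The count table was read into R 4.3.3 and fitted by edgeR 4.0.16 after filterByExpr (minimum count 10, total 15, proportion 0.7) and TMM scaling. The quasi-likelihood test compared the groups without covariates, two-sided, with Benjamini-Hochberg adjustment over 12844 tested genes, which held 99.9% of counts, at a threshold of 0.05. Correlations used log2(CPM + 0.1). The procedure was tested on simulated data. Alternatives were other scalings and filters, DESeq2 1.42.0, limma 3.58.1 (voom, and log2 FPKM with pseudocounts of 1 and 0.1), a replicate block, a length and GC offset (mgcv 1.9.3) and left-out libraries. Promoters came from RefSeq, where all 4 members matched. Replicates differed by more than counting noise (chi-square over degrees of freedom 7.47 to 27.8); where they are not separate cultures, p-values reflect a spread that may be technical only.

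Members and lists were chosen with earlier results of these data known. Named were the members, all genes of the receptor, actin and C5a lists, the 6 highest of the other lists, protein-coding neighbours, the 3 highest markers and those at 0, and the 5 genes closest to Afp in pattern; Apoa2, low or zero genes of the regulator and plasma protein lists, and myeloid markers beyond the 3 highest were named after their values were seen.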

Additional observations from a re-analysis of the deposited data

How the results depend on the processing

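A gene at 0 counts in every library stays at 0 under any scaling, without any library and in FPKM. These alternatives thus could not test the 3 of 4 members at 0. The log2 fold change of Afp stayed between 0.09 and 0.16 under every scaling and left-out library. Only the length and GC offset, with or without the replicate block, gave more in the edgeR fit (0.21). The number of genes called over the whole table was 0 in the reported fit, 4 with DESeq2, 89 with no filter on low counts and 2 with the length and GC offset; leaving out a library gave 0 to 22, with 1 call without empty-vector replicate 2 and 22 without empty-vector replicate 3. The unfiltered fit called 1 neighbour, Cxcl2 (log2 fold change −0.43, edgeR adjusted p = 0.0235). Its adjusted p was 0.781 in the reported edgeR fit and 0.0661 with DESeq2. With the offset alone, and with the replicate block added to it, the median log2 fold change was 0.1011 and 0.1003 in the actin list and −0.0416 and −0.0368 in the regulator list. Medians lay between −0.0786 and 0.0486 in the plasma protein list and between −0.1797 and −0.0383 in the receptor list when each library was left out.

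Some small differences, none past the threshold in the reported fit, changed sign. With the offset, and with the block and offset together, the values were −0.1005 and −0.0830 for Fcgrt, 0.0139 and 0.0128 for Cd44, −0.0592 and −0.0598 for Gsn, −0.0727 and −0.0670 for Nfil3, −0.0105 and −0.00667 for Cebpa, −0.0547 and −0.0540 for Hp, and 0.0324 and 0.0322 for Ankrd17. For Cubn they were −0.0674 with limma-voom, −0.0135 with the replicate block and −0.00541 on log2(FPKM + 0.1). For Trf they were 0.0184 with limma-voom, 0.00599 with the block, 0.00531 on log2(FPKM + 1) and 0.0141 on log2(FPKM + 0.1). Leaving out each library gave −0.397 to 0.312 for Cubn, −0.151 to 0.215 for Fcgrt, −0.0103 to 0.0839 for Anxa2, −0.0473 to 0.174 for Gsn, −0.0549 to 0.114 for Nfil3, −0.1496 to 0.00412 for C3, −0.0192 to 0.187 for Hp, −0.206 to 0.168 for Trf, −0.101 to 0.0666 for Cox18 and −0.101 to 0.420 for Ppbp. The cause of these changes was not tested. The other 880 values computed under alternatives kept their direction and their side of the threshold, or, with no test, moved by less than 1 SD between replicate libraries; counts of calls stayed within 1.5 times. Some of these medians still moved by over 1.5 times when a library was left out: −0.0712 to −0.2231 for the neighbours (−0.14 as reported), 0.036 to 0.149 for the regulators (0.09) and 0.137 to 0.249 for the actin list (0.21).

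Same-numbered libraries did not all deviate together (r of 0.1401, 0.0309 and −0.260 for numbers 1, 2 and 3), so the numbers were not taken as pairs; the block called 0 genes over the whole table.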
